A study of Mus musculus with 3 samples.

Results

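Solute carriers, the genes whose symbols begin with Slc and a number, were examined in endothelial cells (ECs) of mouse lung. Of 376 such genes listed in the files, 4 were left out by name (Slc2a1, Slc7a11, Slc30a1 and Slc39a14), and 145 of the others were selected on their level, a mean of at least 5 CPM over 3 libraries. CPM is the number of unique molecular identifiers (UMIs, each marking 1 captured RNA molecule) of a gene per 1000000 UMIs of the summed EC barcodes. The other 227 lay under that minimum, 20 of them at 0 UMIs in every library. Among all 32285 genes, 10175 reached the same minimum. The selection used the mean over the libraries, so the levels themselves are given as a description with no test. Differences between libraries or vessel classes were not part of the selection, but each library and class entered the mean.

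Each library held sorted Pecam1+ Ptprc- cells from lungs of wild-type C57BL/6 mice, males aged 8 to 10 weeks. Control mice had received PBS in the tail vein and were taken after 6 h, and the other mice had received 200000 B16-F10 cells, a pigmented mouse melanoma line, in 100 µl and were taken after 6 h or 30 h. Lungs were minced and digested with collagenase at 37 °C for 1 h, and sorted melanoma cells were added to the 6 h library. Each library pooled 2 mice per the labels and 3 mice per the methods of the study, which was not settled here, and there was 1 library per group. A library of mice given PBS and taken at 30 h was not analysed here, so at 30 h time and melanoma injection cannot be told apart.

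Solute carriers are membrane proteins that move small molecules such as amino acids, sugars, ions, metals and nucleotides across the plasma membrane and the membranes of organelles. Some work as pairs: Slc3a2 encodes the heavy chain (CD98) that carries amino acid transporters of the Slc7 family to the cell surface. In lung capillaries, general capillary cells (gCap) and the large, thin aerocytes (aCap) lie next to each other, and arteries, veins and lymphatic vessels (LEC) complete the vascular tree. A symbol in this family is no proof of transport: Slc9a3r1 and Slc9a3r2 encode scaffold proteins that bind ion exchangers, and Slc4a1ap and Slc7a6os take their names from neighbours or partners.

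EC barcodes, taken with 1000 to 5000 detected genes, under 20% mitochondrial UMIs and at least 2 UMIs of Pecam1 and Cdh5 together, numbered 11231, 10583 and 9278 in the control, 6 h and 30 h libraries. Summed over barcodes, depth was 90853430, 87340328 and 81485079 UMIs and the median per barcode 7782, 8033 and 8675.5. Pecam1 lay between 1097 and 1237 CPM and Cdh5 between 1583 and 1788 CPM, which the selection on these genes requires. The 7 gCap markers, which did not select EC barcodes, summed to 6611 CPM, 6070 CPM and 5800 CPM, with none at 0. RNA of other cells was also found in these barcodes. Haemoglobin and other red cell genes summed to 3249 CPM in control ECs, 2119 CPM at 6 h and 829 CPM at 30 h, with none of 5 markers at 0, and 8 epithelial genes summed to 840 CPM, 611 CPM and 386 CPM. Melanoma genes stayed between 20.7 and 40.4 CPM, with Tyrp1 at 0 in the control and 30 h libraries. Libraries shared between 22 and 38 EC barcode sequences pairwise.

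The 145 genes together took up 0.715% of EC UMIs in control ECs, 0.705% at 6 h and 0.652% at 30 h. The 30 h library held more RNA of 8 gene models that resemble ribosomal RNA, with sums of 6001 CPM, 7622 CPM and 24406 CPM and 7 of 8 higher by at least 1.5-fold at 30 h than in control. Without these models and mitochondrial genes in the totals, the shares were 0.738%, 0.729% and 0.689%. Levels were uneven. The 15 most abundant genes held 55.4%, 55.1% and 54.4% of these UMIs, 10 genes reached 100 CPM, 26 reached 50 CPM, and the median gene lay at 23.2 CPM, 22.1 CPM and 20.4 CPM. These counts come from 3′ ends and are not divided by transcript length, so levels of different genes are comparable as captured molecules only. The last genes inside the minimum were Slc35e3 (mean 5.28 CPM), Slc25a42 (5.10 CPM) and Slc45a4 (5.02 CPM), and the first outside were Slc22a14 (4.79 CPM), Slc25a47 (4.56 CPM) and Slc25a15 (4.55 CPM). Of the 145, 8 reached 5 CPM in only 1 or 2 of the libraries. Slc5a3 and Slc35e3 were under it in the control library, Slc45a4 at 6 h, and Slc40a1, Slc6a9, Slc34a2, Slc22a17 and Slc25a42 at 30 h.

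The highest level belonged to the scaffold gene Slc9a3r2 (chromosome 17, 24639286 to 24650327, minus strand of GRCm38), with 972 CPM in control ECs, 928 CPM at 6 h and 969 CPM at 30 h. The libraries lay close together, with ratios of 0.955 and 0.997 to control. Slc43a3, a purine nucleobase transporter, followed with 495 CPM, 428 CPM and 423 CPM. Slc3a2 (chromosome 19, 8706882 to 8723369, minus strand) had 427 CPM, 553 CPM and 341 CPM, the highest value being that of the 6 h library. Slc43a3 stood above Slc3a2 in 2 of 3 libraries (mean log2 ratio 0.05 ± 0.37, SD, n = 3), and the melanoma 6 h library had the other order. The libraries differ in treatment, so this SD and those below include it.

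Mitochondrial carriers came next. Slc25a3, the phosphate carrier, lay at 317 CPM, 339 CPM and 268 CPM. The ADP/ATP carriers Slc25a4 and Slc25a5 lay at 222 CPM, 204 CPM and 252 CPM, and at 167 CPM, 199 CPM and 164 CPM. Slc25a4 was above Slc25a5 in 3 of 3 libraries (mean log2 ratio 0.35 ± 0.29, SD, n = 3). Between these stood Slc16a9, a monocarboxylate transporter family member, at 406 CPM, 308 CPM and 205 CPM, and Slc38a2, a sodium-coupled transporter of neutral amino acids, at 244 CPM, 274 CPM and 227 CPM.

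Slc6a2, the noradrenaline transporter, had a mean of 121 CPM, and the sugar transporter Slc50a1 116 CPM. Also among the 15 most abundant were Slc48a1 (heme transport, 99.2 CPM), Slc44a1 (choline, 88.9 CPM), Slc6a6 (taurine, 86.6 CPM) and Slc39a1 (zinc, 76.4 CPM). In the order of the 15, neighbours kept 1 order in all 3 libraries in only 4 of 14 pairs: Slc9a3r2 over Slc43a3, Slc3a2 over Slc25a3, Slc25a4 over Slc25a5 and Slc25a5 over Slc6a2.

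**Figure D1:**
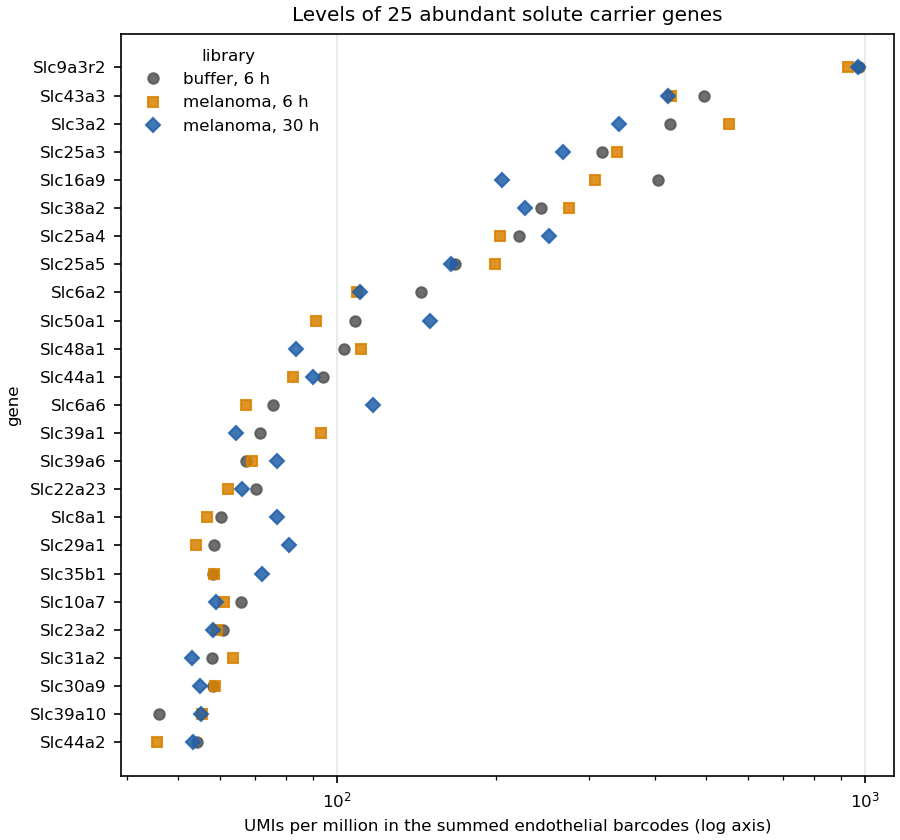
Levels of 25 abundant solute carrier genes in the summed EC barcodes, with CPM on a logarithmic x axis, 1 row per gene and 1 symbol per library. Slc9a3r2 lies near 956 CPM in every library, while Slc16a9 spreads from 205 to 406 CPM and Slc3a2 from 341 to 553 CPM.

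By family number the 145 genes fell into 9 groups. The mitochondrial carriers (family 25) were 32 of 47 listed genes, with a median of 23.6 CPM. The inorganic ion and acid-base group held 23 of 59 listed genes, the nucleoside and nucleotide sugar group 21 of 34, the metal and heme group 20 of 32, the amino acid group 18 of 67 and the sugar and organic acid group 10 of 49. Medians of the groups lay between 10.8 CPM (sugars and organic acids) and 34.5 CPM (metals and heme). The grouping follows the family number only, so Slc43a3 and Slc6a2 stand with the amino acid families although they carry nucleobases and noradrenaline.

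ECs 6 h after melanoma injection were compared with control ECs to ask how transport genes stood when tumor cells lodge in the capillaries. Most solute carriers were close to their control level. Of the 145 genes, 141 lay within 1.5-fold, and the median log2 ratio of (CPM + 1) was -0.01, beside -0.01 over all 10175 genes. Slc5a3 and Slc20a1 were higher by at least 1.5-fold and Slc5a12 and Slc24a3 lower, and none of these 4 passed that fold with a pseudocount of 5 CPM or reached a minimum of 20 CPM. This made 1.38% of the solute carriers in each direction, beside 1.8% higher and 1.14% lower of all genes. With 1 library per group no difference between libraries was tested, and the intervals given are exact and cover counting error only.

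Slc5a3, the myo-inositol transporter (chromosome 16, 92058322 to 92087473, plus strand), had 4.27 CPM in control ECs, 8.48 CPM at 6 h and 8.50 CPM at 30 h. Both melanoma libraries were above the control library, by 1.99-fold each. Its control level was under 5 CPM, so it was selected through the libraries where it is high, and its ratios are a description only. The log2 interval of the unadjusted ratio at 6 h ran from 0.81 to 1.17. In gCap-like barcodes the gene stood at 4.20 CPM, 9.06 CPM and 9.43 CPM. Slc5a3 overlaps Mrps6 on the same strand, and Mrps6 had 25.9 CPM, 39.6 CPM and 32.5 CPM, so how reads were divided between the genes bears on this value and was not tested.

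Slc20a1, a sodium-phosphate cotransporter (chromosome 2, 129198764 to 129211616, plus strand), had 12.4 CPM, 19.8 CPM and 15.7 CPM. The 6 h library was the highest, 1.59-fold above control (log2 interval 0.56 to 0.78), and the 30 h library lay between. Within gCap-like barcodes the levels were 9.87 CPM, 18.2 CPM and 13.7 CPM.

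The sequences before the start sites of these genes are shown because both genes were past 1.5-fold at 6 h with the pseudocount of 1 CPM used here. They are the 250 bases before the RefSeq start in GRCm38.p6, at chr16:92058072-92058321 for Slc5a3 and chr2:129198523-129198772 for Slc20a1 (of 2 listed starts, the one nearest the annotated start of the gene), both on the plus strand. Capitals mark GGGGCGGGG, a GC box of the kind bound by Sp1.
Slc5a3: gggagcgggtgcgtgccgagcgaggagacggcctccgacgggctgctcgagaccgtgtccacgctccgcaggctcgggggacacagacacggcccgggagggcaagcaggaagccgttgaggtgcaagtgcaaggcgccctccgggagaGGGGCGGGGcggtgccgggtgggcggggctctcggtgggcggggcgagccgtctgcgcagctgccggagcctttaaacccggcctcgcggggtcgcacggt
Slc20a1: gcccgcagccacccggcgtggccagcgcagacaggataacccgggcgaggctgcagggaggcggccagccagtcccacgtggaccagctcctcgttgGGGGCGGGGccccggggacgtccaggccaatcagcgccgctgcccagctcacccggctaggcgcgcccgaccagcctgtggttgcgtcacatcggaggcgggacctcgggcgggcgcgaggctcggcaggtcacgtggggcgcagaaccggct
Each holds 1 match to GGGGCGGGG, from base -101 to -93 before the start of Slc5a3 and from -153 to -145 before that of Slc20a1. The sequences are 74.8% and 75.2% G and C. Other forms of the GC box were not searched for, and further GGGCGG stretches, left unmarked, occur in both. On either strand, GGGGCGGGG was present in 10.4% of 32851 promoter windows of this length and in 17.2% of the 151 windows of 111 solute carriers among the 145. TTCNNNGAA, the motif of STAT factors, was in 7.02% of windows, TGANTCA (AP-1) in 6.75% and the NF-kB motif in 1.41%, and no match to these was in the windows of Slc5a3 or Slc20a1. In the windows of solute carriers the shares of these 3 motifs were 5.96%, 5.3% and 0.662%. No windows of Slc40a1, Slc6a2, Slc5a12 or Slc45a4 were in the table used.

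Among the lower genes at 6 h, Slc5a12, a sodium-coupled lactate transporter, had 9.56 CPM in control ECs, 5.69 CPM at 6 h and 14.2 CPM at 30 h. The 6 h library was the lowest and the 30 h library the highest. Of its UMIs 72.8%, 74.2% and 78.4% lay in aCap-like barcodes, where it stood at 53.8 CPM, 35.8 CPM and 70.7 CPM. Slc24a3, a potassium-dependent sodium-calcium exchanger, had 21.8 CPM, 13.8 CPM and 6.57 CPM, and so was lower at 6 h and lower again at 30 h.

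**Figure D2:**
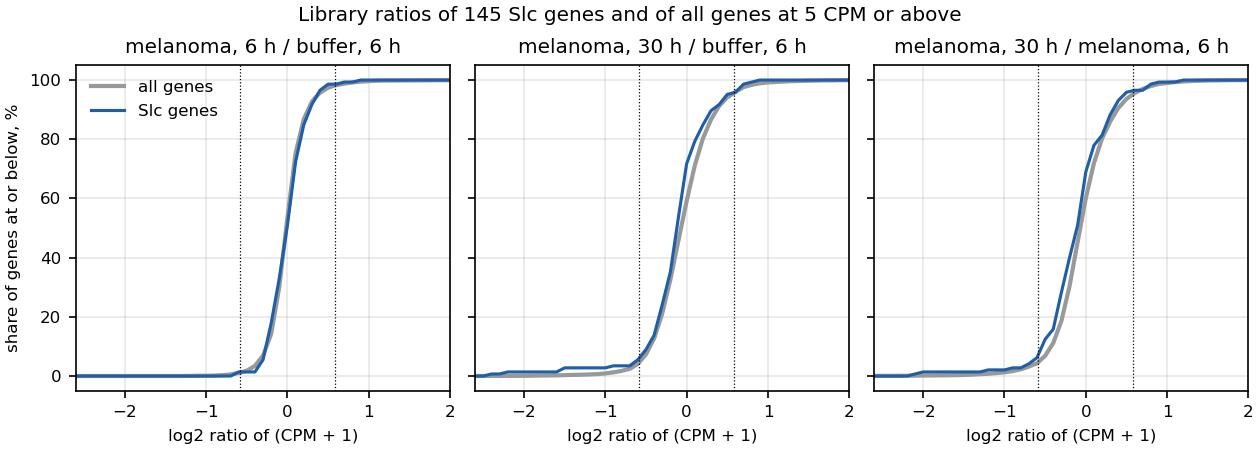
Cumulative shares of the 145 solute carrier genes (blue) and of all 10175 genes (grey) at or below each log2 ratio of (CPM + 1), 1 panel per pair of libraries, with dotted lines at a 1.5-fold difference. The curves lie close together at 6 h. At 30 h the solute carriers have medians of -0.12 against control and -0.10 against 6 h, beside -0.071 and -0.07 of all genes. With TMM scaling these are -0.051 and -0.052, beside -0.004 and -0.016.

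At 30 h, 14 solute carriers differed from control by at least 1.5-fold. Higher were Slc5a3, Slc10a3, Slc25a1, Slc35c2, Slc15a3 and Slc6a6, which is 4.14% of the 145 beside 4.24% of all genes. Lower were Slc40a1, Slc6a9, Slc24a3, Slc34a2, Slc16a9, Slc25a33, Slc22a17 and Slc26a11, which is 5.52% beside 4.39% of all genes. The share of solute carriers was thus near the background in each direction. Slc40a1, Slc6a9, Slc34a2 and Slc22a17 were under 5 CPM at 30 h and were selected through the other libraries, so their ratios at 30 h, like that of Slc5a3, are a description only. The median log2 ratio was -0.12, beside -0.07 over all genes, and 41 of 145 genes (28.3%) had a ratio above 0, beside 40.9% of all genes. With TMM scaling 56 (38.6%) did, beside 49.4%. It was -0.051 beside -0.004 with TMM scaling, -0.048 beside -0.001 with median of ratios scaling, and -0.088 beside -0.04 without mitochondrial genes and the ribosomal RNA-like models in the totals. The 30 h and 6 h comparisons share the control library.

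Slc40a1 encodes ferroportin, the iron exporter of mammalian cells. The gene (chromosome 1, 45908068 to 45926523, minus strand) had 31.5 CPM in control ECs, 24.2 CPM at 6 h and 4.77 CPM at 30 h. The 30 h level was 0.151 times that of control (log2 interval -2.88 to -2.57) and stood apart from both 6 h libraries. In aCap-like barcodes it had 133 CPM, 121 CPM and 18.7 CPM, and in gCap-like barcodes 12.3 CPM, 7.90 CPM and 1.38 CPM. LEC-like barcodes, with 10, 7 and 7 UMIs, gave 20.4 CPM, 18.7 CPM and 14.1 CPM, and their counting intervals overlapped.

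Slc6a9 encodes the glycine transporter GlyT1. The gene (chromosome 4, 117834506 to 117875198, plus strand) had 17.5 CPM, 15.3 CPM and 2.88 CPM, the 30 h library again standing apart at 0.165 times control (log2 interval -2.80 to -2.40). Its aCap-like levels were 62.9 CPM, 66.5 CPM and 7.42 CPM, and its gCap-like levels 8.94 CPM, 6.04 CPM and 1.71 CPM. After each barcode was thinned to 2000 UMIs, the share of aCap-like barcodes with a UMI was 11.1%, 11.4% and 2.04% for Slc6a9 and 19.98%, 18.8% and 3.75% for Slc40a1. In vein-like barcodes, where both levels were low, the thinned shares were 1.54%, 0.699% and 0% for Slc6a9 and 1.03%, 1.40% and 0% for Slc40a1. Unthinned, the aCap-like shares were 40.1%, 43.7% and 6.64% for Slc6a9 and 55.2%, 54.98% and 16.01% for Slc40a1.

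Red cell RNA was lower at 30 h as well. Barcodes with at least 3 markers of 1 other cell type numbered 8819, 6193 and 1268, and 1908, 1167 and 948 when red cell genes were not used. Without barcodes carrying at least 3 markers of 1 other cell type, red cell genes included, the log2 ratio at 30 h was -2.69 for Slc40a1 and -2.45 for Slc6a9, beside -2.49 and -2.25 with them. When red cell genes were not used, an alternative chosen after seeing the data, the ratios were -2.535 and -2.302. In droplets with 5 to 100 UMIs, taken as empty, Slc40a1 had 28.3 CPM, 21.96 CPM and 2.73 CPM and Slc6a9 25.4 CPM, 37.7 CPM and 4.55 CPM.

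Slc34a2, the phosphate transporter of alveolar type II epithelium, had 11.4 CPM, 9.13 CPM and 3.29 CPM in EC barcodes. Empty droplets held more of it, 79.0 CPM, 63.8 CPM and 70.1 CPM. Without barcodes carrying markers of another cell type, its log2 ratio at 30 h was -0.35, which is under 1.5-fold, in place of -1.53. In gCap-like barcodes alone, with such barcodes kept, it was -0.535. The exclusion took out far more barcodes of the control library than of the 30 h library, and the cause of the difference was not tested.

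Slc16a9 was lower across the blood vessel classes. Its gCap-like level was 419 CPM in control ECs, 303 CPM at 6 h and 184 CPM at 30 h, the artery-like level 273 CPM, 200 CPM and 115 CPM, the vein-like level 228 CPM, 174 CPM and 117 CPM and the aCap-like level 496 CPM, 454 CPM and 359 CPM. The 30 h library was the lowest in each of these. In gCap-like barcodes Slc24a3 had 30.5 CPM, 17.2 CPM and 9.03 CPM. At 30 h against control its log2 ratio was -1.65 there and 1.64 in LEC-like barcodes (log2 interval 0.35 to 3.32). Slc25a33, a carrier of pyrimidine nucleotides in mitochondria, had 17.04 CPM, 14.8 CPM and 10.1 CPM, and Slc26a11, a sulfate and chloride carrier, 18.1 CPM, 15.2 CPM and 11.2 CPM.

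Among the higher genes at 30 h, Slc6a6, the taurine transporter, had 75.6 CPM, 67.2 CPM and 117 CPM. The 30 h library was the highest, 1.55-fold above control (log2 interval 0.58 to 0.67). Its gCap-like levels were 84.9 CPM, 75.04 CPM and 135 CPM, and the aCap-like ones 10.4 CPM, 10.6 CPM and 9.14 CPM. Slc25a1, the mitochondrial citrate carrier, had 14.4 CPM, 12.8 CPM and 23.2 CPM, with 30 h standing above both 6 h libraries. Slc15a3, an endolysosomal transporter of peptides and histidine, had 14.5 CPM, 18.3 CPM and 23.03 CPM. Slc10a3 had 5.16 CPM, 5.24 CPM and 9.34 CPM and overlaps Ubl4a on the same strand (29.2 CPM, 32.6 CPM and 31.2 CPM). Slc35c2, a member of the nucleotide sugar transporters, had 6.09 CPM, 7.52 CPM and 10.0 CPM.

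**Figure D3:**
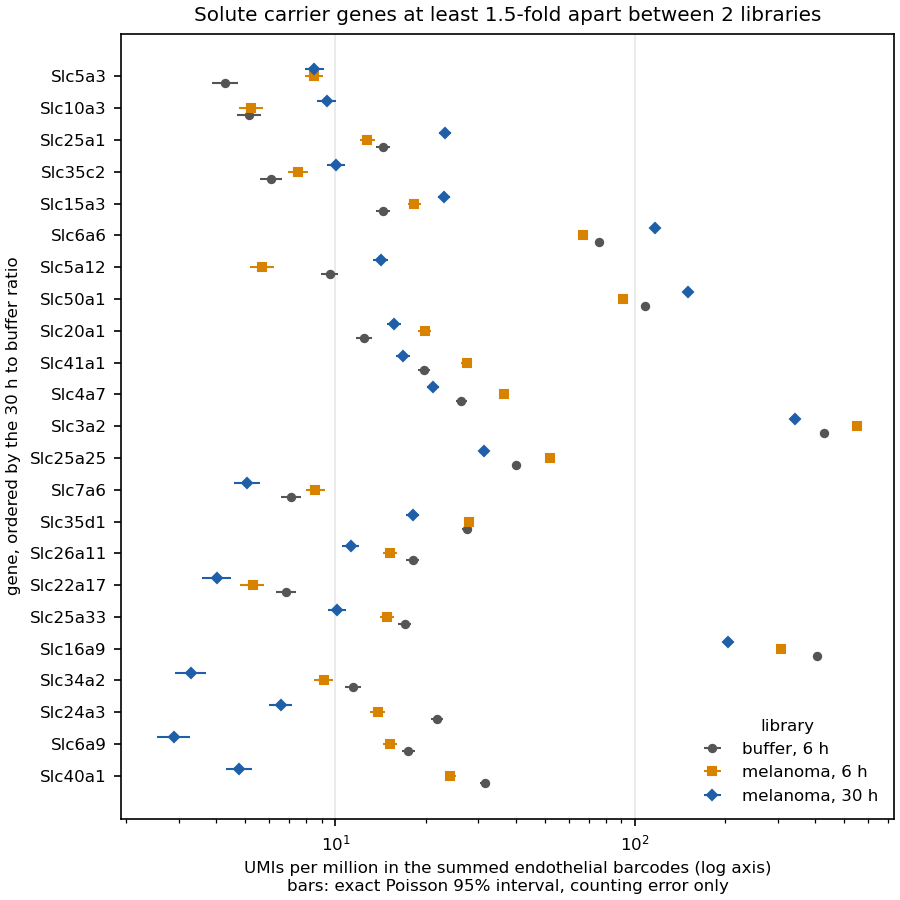
Levels of the 23 solute carrier genes that differed by at least 1.5-fold between any pair of libraries, as CPM on a logarithmic x axis with exact Poisson 95% intervals for counting error, ordered by the ratio of 30 h to control. Slc40a1 and Slc6a9 have the lowest ratios, with 30 h values of 4.77 and 2.88 CPM, and Slc5a3 the highest, with 8.50 CPM at 30 h and 4.27 CPM in control ECs.

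Between the melanoma libraries, 5 solute carriers were higher at 30 h than at 6 h (3.45%, beside 4.69% of all genes) and 11 lower (7.59%, beside 4.61%). The higher genes were Slc5a12, Slc25a1, Slc6a6, Slc10a3 and Slc50a1. The lower genes were Slc40a1, Slc6a9, Slc34a2, Slc24a3, Slc4a7, Slc25a25, Slc3a2, Slc41a1, Slc7a6, Slc35d1 and Slc16a9. Several of these had their highest level at 6 h. Slc3a2 was 0.617 times as high at 30 h as at 6 h (log2 interval -0.72 to -0.68). Slc25a25, a mitochondrial ATP-magnesium and phosphate carrier, had 40.2 CPM in control ECs, 51.9 CPM at 6 h and 31.3 CPM at 30 h. Slc4a7, a sodium-bicarbonate cotransporter, had 26.3 CPM, 36.4 CPM and 21.1 CPM, and Slc41a1, a magnesium transporter, 19.7 CPM, 27.4 CPM and 16.8 CPM. Against control, these 4 genes stayed within 1.5-fold at both times in the summed ECs. By class, Slc3a2 at 30 h against control had a log2 ratio of -0.84 in aCap-like barcodes (log2 interval -0.92 to -0.76) and -0.24 in gCap-like ones.

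Of the light chains that pair with Slc3a2, Slc7a6 and Slc7a7 are among the 145, and both had lower levels than Slc3a2, as captured molecules. Slc7a6 (y+LAT2) had 7.11 CPM, 8.56 CPM and 5.07 CPM, with its highest value at 6 h like Slc3a2. Slc7a7 (y+LAT1), also a partner, had 17.3 CPM, 19.1 CPM and 24.6 CPM, with its highest value at 30 h. Slc7a1, a cationic amino acid transporter that works without the heavy chain, had 12.5 CPM, 15.5 CPM and 11.9 CPM. In gCap-like barcodes Slc3a2 stood at 450 CPM, 604 CPM and 381 CPM, and after thinning 55.5%, 65.3% and 49.5% of these barcodes held a UMI of it (LEC-like 36.7%, 29.2% and 27.5%).

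By group, 18 amino acid genes had a median log2 ratio of -0.02 at 6 h and -0.17 at 30 h against control, and 1 was higher and 1 lower by 1.5-fold at 30 h. Among 32 mitochondrial carriers the medians were -0.01 and -0.21, with Slc25a1 higher and Slc25a33 lower at 30 h. Among 20 metal and heme genes the medians were 0.05 and -0.14, with Slc40a1 alone past 1.5-fold at 30 h. The 21 nucleoside and nucleotide sugar genes had medians of 0.01 and -0.03. The 10 sugar and organic acid genes had medians of -0.25 and 0.20, with single ratios between -0.98 and 0.85 at 30 h and 1 gene higher and 1 lower by 1.5-fold. In the 23 ion and acid-base genes, with medians of -0.01 and -0.20, 3 were lower at 30 h (Slc24a3, Slc34a2 and Slc26a11) and none higher. All genes had medians of -0.01 and -0.07, with 4.24% higher and 4.39% lower at 30 h.

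Related genes were taken from lists written with earlier results of these data known. Of 12 genes of the amino acid response, which induces many amino acid transporters through Atf4, 7 reached 5 CPM. Their median log2 ratio was 0.14 at 6 h and -0.49 at 30 h against control, with 0 past 1.5-fold at 6 h and 2 lower at 30 h, beside 4.39% of all genes. Asns, asparagine synthetase, had 33.7 CPM, 37.3 CPM and 17.8 CPM, and Eif4ebp1, a translation repressor, 63.6 CPM, 57.6 CPM and 41.5 CPM. Atf4 itself had 182 CPM, 229 CPM and 152 CPM, highest at 6 h. Of 31 other membrane transport genes at the minimum (Slco, Abc, Mfsd and Aqp), 1 was higher (Abcb1b) and 2 lower (Abcg2 and Aqp11) at 6 h, and 1 higher (Mfsd4a) and 0 lower at 30 h, beside 1.8% and 1.14% of all genes at 6 h and 4.24% and 4.39% at 30 h.

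Vessel classes were then compared, since each library held every class and the libraries could serve as replicates. Barcodes were assigned by counts of class markers, none of them a solute carrier. The gCap-like class held 7009, 6755 and 5151 barcodes (control, 6 h and 30 h), aCap-like 1170, 1004 and 1181, artery-like 146, 138 and 227, vein-like 389, 286 and 305, and LEC-like 60, 48 and 51, and between 21.9% and 25.5% stayed unassigned. Artery-like barcodes needed at least 4 of 7 artery markers, and 85, 79 and 88 of them stood at that limit. The median artery-like or vein-like barcode also held 5 of 7 gCap markers, so these classes were not fully separated from gCap-like. Each class was tested against gCap-like with the quasi-likelihood test of edgeR, with library as a block, over all 10175 genes, and a gene was called at an adjusted p under 0.05 and at least 2-fold. The libraries differ in treatment, so the spread between them includes it. Of the 145 genes, 99 were called in no class, which was not counted for all genes. In at least 1 class 16.6% were called higher, beside 16% of all genes, and 20% lower, beside 20%. For 4 genes (Slc5a12, Slc45a4, Slc6a2 and Slc25a42) the gCap-like mean was under 5 CPM, so that they reached the minimum through other classes. Where they are high the test could only find them so, and their levels there are given as a description with no p, although they are in the counts of calls.

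**Figure D4:**
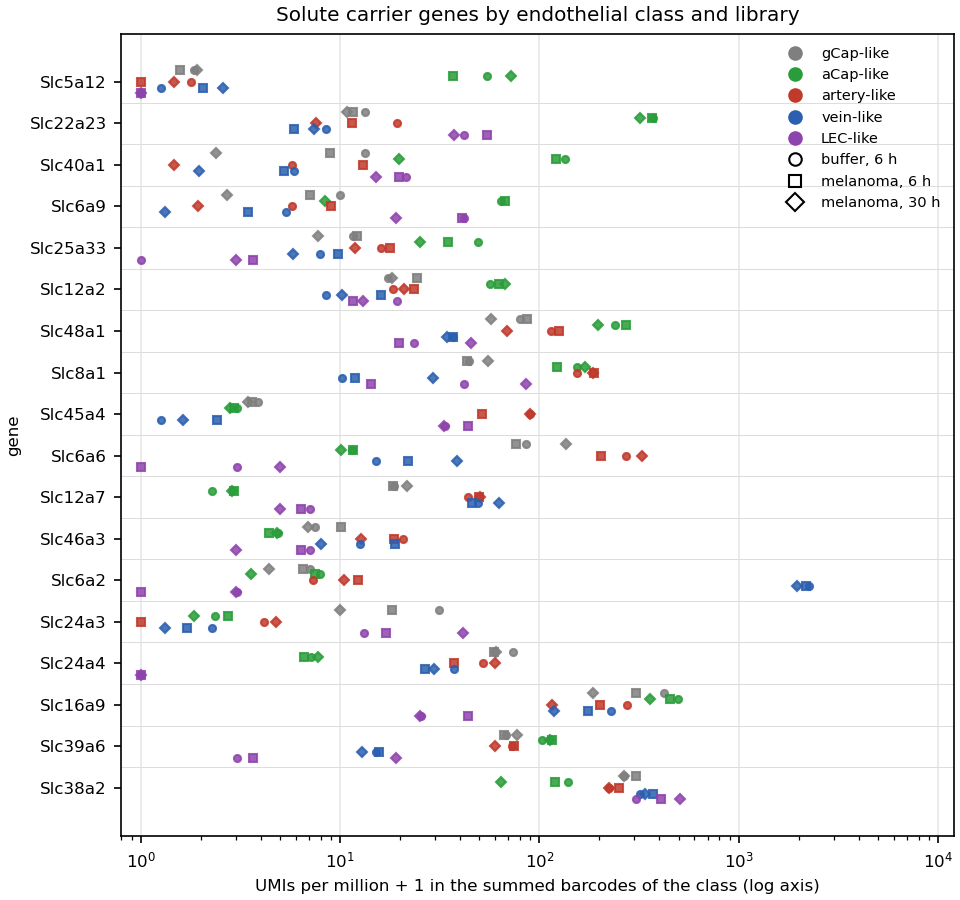
Levels of solute carrier genes by endothelial class (colour) and library (symbol), as CPM + 1 on a logarithmic x axis. Slc6a2 lies between 1959 and 2248 CPM in vein-like barcodes and between 3.42 and 6.05 CPM in gCap-like barcodes, and Slc22a23 between 318 and 371 CPM in aCap-like barcodes.

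Slc6a2 (chromosome 8, 92960079 to 93001667, plus strand), which takes up noradrenaline, had 2248 CPM, 2186 CPM and 1959 CPM in vein-like barcodes and 6.05 CPM, 5.49 CPM and 3.42 CPM in gCap-like barcodes. The vein-like levels were above the gCap-like ones in 3 of 3 libraries. After thinning to 2000 UMIs, 92.5%, 90.2% and 87.5% of vein-like barcodes held a UMI of it, against 1.12%, 1.00% and 0.645% of gCap-like ones. Unthinned, the shares were 98.5%, 96.5% and 95.7% against 2.97%, 2.89% and 2.11%, with Slc6a2 at 129 CPM, 108 CPM and 73.7 CPM in empty droplets. Also higher in vein-like barcodes was Slc12a7, a potassium-chloride cotransporter (51.5 ± 8.93 CPM against 18.5 ± 1.78 CPM, SD, n = 3, edgeR adjusted p = 2.53e-09). In all, 3 genes were higher, which is 2.07% of the 145 beside 4.3% of all genes. Lower were 9 (6.21%, beside 4.11%), among them Slc24a3, the glutamate transporter Slc1a1, the zinc transporter Slc39a6 (13.6 ± 1.54 CPM against 69.5 ± 5.65 CPM, SD, n = 3) and Slc6a6. The others were Slc34a2, Slc45a4, Slc8a1, Slc6a9 and Slc2a13. Of these, Slc45a4 was low already in gCap-like barcodes, with a mean of 2.65 CPM. Barcodes with markers of another cell type were kept in all class tests, which bears on Slc34a2 and was not tested.

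In aCap-like barcodes 8 solute carriers were higher, which is 5.52% beside 4.93% of all genes. Slc22a23, an orphan member of the organic ion transporters (chromosome 13, 34179158 to 34345182, minus strand), had 371 CPM, 368 CPM and 318 CPM against 12.3 CPM, 10.6 CPM and 9.82 CPM in gCap-like barcodes (edgeR log2 fold change 5.01, adjusted p = 1.94e-15). Slc5a12, at the aCap-like levels given above, had gCap-like levels between 0.569 and 0.914 CPM. Slc40a1 and Slc6a9 were also called, at log2 fold changes of 3.67 and 2.91 (edgeR adjusted p = 4.14e-12 and 7.5e-10), and they were higher than in gCap-like barcodes in each library although both levels differed between libraries. The others were Slc25a33, Slc12a2 (sodium-potassium-chloride cotransport, 61.1 ± 5.37 CPM against 18.98 ± 3.76 CPM, SD, n = 3), Slc48a1 (heme, 235 ± 37.8 CPM against 73.7 ± 15.5 CPM) and Slc8a1, the sodium-calcium exchanger NCX1 (148 ± 23.4 CPM against 46.6 ± 6.46 CPM).

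Lower in aCap-like barcodes were 10 genes, 6.9% beside 9.79% of all genes. Slc6a6 had 10.4 CPM, 10.6 CPM and 9.14 CPM and did not overlap the gCap-like levels (edgeR log2 fold change -3.27, adjusted p = 7.73e-11). Slc24a3 (log2 -3.78), Slc12a7 (log2 -3.46) and the sodium-calcium exchanger Slc24a4 (log2 -3.37) had lower values of the log2 fold change. Slc38a2 had 139 CPM, 119 CPM and 63.0 CPM against 266 CPM, 304 CPM and 266 CPM (edgeR log2 -1.41, adjusted p = 7.04e-06), and Slc35b3, a carrier of the sulfate donor into the Golgi, 12.97 ± 2.99 CPM against 39.04 ± 7.56 CPM (SD, n = 3). The calls on Slc15a3, Slc10a1, Slc34a2 and Slc7a6 were between log2 -1.16 and -1.47.

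Artery-like barcodes had 5 higher genes (3.45%, beside 3.5% of all genes). Slc45a4 had 88.6 CPM, 50.7 CPM and 89.3 CPM, from 112, 63 and 189 UMIs, against 2.89 CPM, 2.63 CPM and 2.44 CPM. Slc6a6 had 272 CPM, 204 CPM and 328 CPM against 84.9 CPM, 75.04 CPM and 135 CPM (edgeR log2 1.48, adjusted p = 1.72e-06). Across the classes Slc6a6 thus ran from artery-like (268 ± 62.5 CPM, SD, n = 3) through gCap-like (98.4 ± 32.2 CPM) and vein-like (24.3 ± 12.1 CPM) to aCap-like (10.1 ± 0.793 CPM) and LEC-like (2.02 ± 2.01 CPM). Slc8a1 (175 ± 19.2 CPM), Slc12a7 (46.97 ± 3.67 CPM) and Slc46a3 (16.4 ± 4.14 CPM) were the others. Lower were Slc1a1, Slc24a3 and Slc10a1 (2.07%, beside 2.47%). Without the control library 1 of these 3 calls was left, that on Slc1a1.

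LEC-like barcodes, the smallest class, had 14 higher genes (9.66%, beside 9.41% of all genes) and 20 lower (13.8%, beside 12.4%). Higher were Slc45a4 (35.8 ± 5.98 CPM, SD, n = 3), Slc7a7 (110 ± 34.7 CPM against 22.4 ± 5.15 CPM, edgeR adjusted p = 8.14e-07), the copper transporter Slc31a2 (160 ± 9.52 CPM against 59.1 ± 5.68 CPM, edgeR adjusted p = 1.03e-07), the mitochondrial sodium-calcium exchanger Slc8b1 (33.9 ± 11.2 CPM against 9.49 ± 1.52 CPM), Slc4a7 and Slc6a9. The other higher genes were Slc22a23, Slc40a1, Slc36a1, Slc35d2, Slc41a1, Slc30a4, Slc25a27 and Slc35a5. For Slc40a1 the LEC-like UMIs were few, as given above. Its log2 ratio at 30 h against control was -0.50 in LEC-like and -2.48 in gCap-like barcodes, so the distance between these classes was widest at 30 h. Lower were the abundant genes Slc9a3r2 (328 ± 24.5 CPM against 897 ± 25.7 CPM, edgeR adjusted p = 3.97e-10), Slc43a3 (139 ± 15.2 CPM against 470 ± 35.7 CPM), Slc3a2 (207 ± 22.1 CPM against 478 ± 114 CPM) and Slc16a9 (30.4 ± 10.7 CPM against 302 ± 117 CPM). Slc24a4 had 0 UMIs in LEC-like barcodes of every library, while its gCap-like levels were 72.5 CPM, 58.0 CPM and 59.3 CPM.

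Counted over classes, 24 of the 145 genes were higher than in gCap-like barcodes in at least 1 class (16.6%, beside 16% of all genes) and 29 lower in at least 1 (20%, beside 20% of all genes). None of the 145 was called in the same direction in all 4 classes, which was not counted for all genes. Of 32 mitochondrial carriers, 1 was higher in aCap-like barcodes, 1 higher and 2 lower in LEC-like barcodes and 0 called in artery-like or vein-like barcodes, and of 21 nucleoside and nucleotide sugar genes 1 was lower in aCap-like barcodes, 2 higher and 2 lower in LEC-like barcodes and 0 called in the others, which is few genes to set against the shares of all genes above. Of 18 amino acid genes, 1 was higher and 3 lower in aCap-like and in vein-like barcodes, 1 and 1 in artery-like and 3 and 5 in LEC-like. Of 23 ion and acid-base genes, 2 were higher and 4 lower in aCap-like and in LEC-like barcodes, 2 and 1 in artery-like and 1 and 3 in vein-like. Of 20 metal and heme genes, 4 were higher and 2 lower in LEC-like barcodes, 2 higher in aCap-like and 1 lower in vein-like. Over all genes, 4.93% were higher and 9.79% lower in aCap-like barcodes and 3.5% and 2.47% in artery-like. The shares were 4.3% and 4.11% in vein-like and 9.41% and 12.4% in LEC-like barcodes. These groups too are few genes to set against such shares, and no group was tested. Slc6a2, Slc22a23 and Slc45a4 also stand on the study's own lists of cluster markers, which were chosen on cells that included these libraries, so those lists are not independent of the calls given here.

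**Figure D5:**
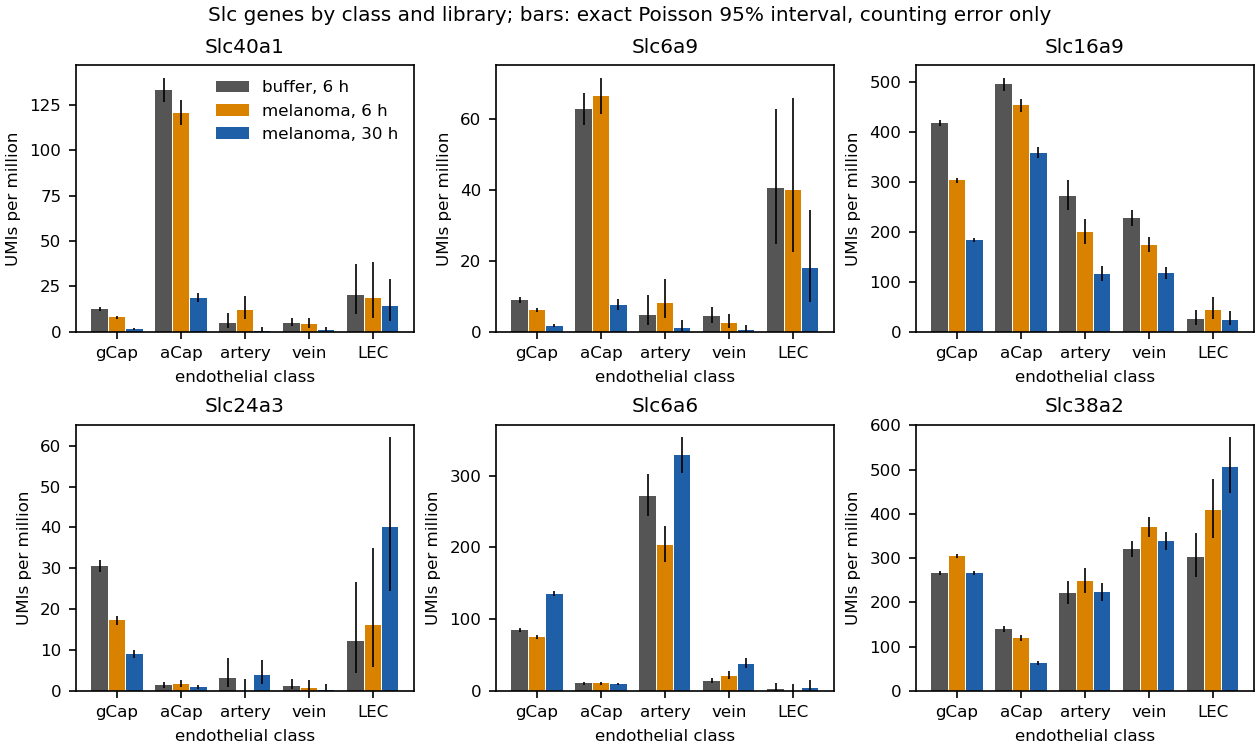
Levels of 6 solute carrier genes by endothelial class and library as bars of CPM, with exact Poisson 95% intervals for counting error. Slc40a1 and Slc6a9 are highest in aCap-like barcodes of the 6 h libraries (133 and 121 CPM, and 62.9 and 66.5 CPM) and lower at 30 h (18.7 and 7.42 CPM), Slc16a9 is lowest at 30 h in the 4 blood vessel classes, and Slc6a6 is highest in artery-like barcodes.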

How the data were processed

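Single-cell 3′ libraries were made from sorted lung ECs. The authors deposited unfiltered UMI counts per gene and barcode, made with Cell Ranger 7.2.0 on mm10 per the submitters' processing notes, which also name Seurat 4.4.0. Deposited counts were summed over EC barcodes per library and per class (Python 3.11.15, scanpy 1.11.5, scipy 1.17.1) and scaled to CPM. A mean of 5 CPM or more was required, ratios used log2(CPM + 1), and intervals at 95% were exact and cover counting error only, so that deeper sums are more precise. Libraries were not tested against each other (1 per group). Classes were tested with edgeR 4.0.16 (quasi-likelihood, Benjamini-Hochberg adjustment, library as a block) in R 4.3.3, with DESeq2 1.42.0 as an alternative, and the scripts were tested on simulated data. Doublets were kept in the main values and left out in an alternative. Promoter sequences were from RefSeq on GRCm38.p6. Genes named were the 15 most abundant, up to 10 in each direction past 1.5-fold for each pair of libraries, the 6 highest and 4 lowest called log2 fold changes for each class, the 3 on either side of the minimum and the partners of Slc3a2; the other genes called were named after their values were seen. The genes and lists were chosen with earlier results of these data known. Some genes that the rule selects are not reported here.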

Additional observations from a re-analysis of the deposited data

Results flagged for a closer look

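Several solute carriers moved in opposite directions in different endothelial classes, each class being 1 library against 1 library, and none of these differences between classes was tested. By the same rule (at least 20 UMIs, 1.5-fold and a counting interval that leaves out 0 in each class) 2.76% of the 145 did so at 30 h against control, beside 1.2% of all genes, and 1.38% at 30 h against 6 h, beside 1.31%. At 6 h against control 0% did so, beside 0.619% of all genes. At 30 h against control, the log2 ratio of Slc38a2 was 0.738 in LEC-like and -1.128 in aCap-like barcodes, that of Slc7a7 was 0.926 in vein-like and -0.924 in LEC-like barcodes, and that of Slc24a3 was 1.64 in LEC-like and -1.65 in gCap-like barcodes. Slc7a1 had 1.071 in artery-like and 0.93 in vein-like barcodes and -1.413 in aCap-like barcodes. At 30 h against 6 h, Slc41a1 had a log2 ratio of 1.365 in LEC-like barcodes and of -0.726 in gCap-like, -0.616 in aCap-like, -1.042 in artery-like and -0.693 in vein-like barcodes, and Slc7a7 had 0.701 in artery-like and -0.826 in LEC-like barcodes. LEC-like sums rest on 48 to 60 barcodes per library, and their counting intervals at 30 h against control were 0.35 to 3.32 for Slc24a3, -1.57 to -0.32 for Slc7a7 and 0.44 to 1.04 for Slc38a2.

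Droplets with 5 to 100 UMIs, which entered no comparison between libraries or classes, held UMIs of solute carriers under the minimum that the control library had at or near 0. At 30 h these were Slc26a10 (6.978 CPM, 23 UMIs), Slc4a10 (5.764 CPM, 19 UMIs) and Slc7a10 (5.157 CPM, 17 UMIs), each with 0 UMIs in the control library. At 6 h they were Slc45a2, a melanosome gene (8.366 CPM, 8 UMIs, 0 in the control library), and Slc38a1 (9.412 CPM, 9 UMIs, 1 in the control library). The 30 h library had 3296301 UMIs in such droplets and the control library 1379144.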

How the results depend on the processing

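Counts of solute carriers past 1.5-fold changed with the pseudocount and with the minimum level. The counts past 1.5-fold and of class calls in this section were made for solute carriers only. Whether the counts of all genes moved alike was not measured. With a pseudocount of 5 CPM the counts were 0 higher and 0 lower at 6 h against control, 1 higher and 5 lower at 30 h against control, and 7 lower at 30 h against 6 h. With a minimum of 20 CPM, which left 78 genes, they were 0 and 0, 1 and 2, and 2 higher and 7 lower, and with a minimum of 1 CPM 8 were higher at 30 h against 6 h. With barcodes of at least 300 genes 1 gene was higher at 6 h, and 1 was lower at 6 h in gCap-like barcodes alone or with the class mix of the control library. The median ratio at 30 h was -0.051 against control and -0.052 against 6 h with TMM scaling, and -0.048 and -0.041 with median of ratios scaling. Leaving out 1 library at a time gave 8 to 10 higher and 10 to 11 lower genes for aCap-like, 5 to 6 and 1 to 4 for artery-like, 3 and 7 to 10 for vein-like and 10 to 14 and 16 to 21 for LEC-like barcodes, the lowest artery-like count being that without the control library. The fewest original calls kept were 8 of 8 higher and 9 of 10 lower for aCap-like, and 4 of 5 and 1 of 3 for artery-like. For vein-like they were 3 of 3 and 6 of 9, and for LEC-like 10 of 14 and 16 of 20. The causes were not tested. The median ratio at 6 h against control, -0.009, was 0.005 with TMM scaling and 0.01 with a minimum of 1 CPM, and the other medians between libraries, and the genes past 1.5-fold between libraries in those comparisons, kept their direction under the alternatives run. Genes within 1.5-fold were not followed in this way, and for example Slc7a1 at 30 h against control had a log2 ratio of 0.31 in gCap-like barcodes alone while its level over all ECs was lower. At 6 h against control Slc7a1 had a log2 ratio of 0.62 in gCap-like barcodes alone (log2 interval 0.51 to 0.84). That is past 1.5-fold, while over all ECs the gene stayed within it. Between libraries no paired analysis was possible because each group has 1 library. Between classes library was a block, and without it the counts were 8 higher and 10 lower for aCap-like, 5 and 3 for artery-like, 3 and 8 for vein-like and 13 and 20 for LEC-like barcodes. The alternative that left out mixed barcodes but did not use red cell genes was chosen after seeing the data and gave -0.294 for Slc34a2 at 30 h.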

Other observations

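Some solute carriers under the minimum were abundant in LEC-like barcodes, the smallest class, and were chosen here after their values were seen, with no test. Slc45a3 had 183 CPM in control ECs, 136 CPM at 6 h and 209 CPM at 30 h in LEC-like barcodes, and at most 0.0938 CPM in gCap-like barcodes. Slc9a9, an endosomal sodium-proton exchanger, had 179 CPM, 401 CPM and 304 CPM, Slc10a6 99.8 CPM, 74.8 CPM and 109 CPM, Slc16a12 67.2 CPM, 80.1 CPM and 90.4 CPM, and Slc43a2 48.9 CPM, 37.4 CPM and 30.1 CPM.

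Among other membrane transport genes, Slco2a1, a prostaglandin transporter, was the most abundant, with 1198 CPM, 1076 CPM and 965 CPM, and the water channel Aqp1 had 699 CPM, 717 CPM and 926 CPM. Abcb1b, a drug efflux pump, had 8.61 CPM in control ECs, 20.6 CPM at 6 h and 6.82 CPM at 30 h, and Abcg2, another, 123 CPM, 78.6 CPM and 85.5 CPM.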
